A study of Arabidopsis thaliana with 6 samples.

Results

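Glucosinolates are sulphur-rich thioglucosides that *Arabidopsis thaliana* and its relatives make for defence. The aliphatic class is built from methionine after its side chain is lengthened, and the indole class from tryptophan. MYB transcription factors control both branches, and enzymes called myrosinases release toxic isothiocyanates or nitriles when tissue is damaged. The 45 genes described here were listed by locus identifier, from 33602 loci in each table. They comprise 19 genes of aliphatic synthesis, 10 of indole synthesis, 4 shared between the branches, 6 MYB regulators and 6 genes of breakdown.

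The study compared seedlings labelled bbx4-1, a mutant line named for the B-box zinc finger gene BBX4, with wild-type seedlings, both labelled Col (Columbia). All seedlings had grown for 4 days in continuous red light at 22 °C. The authors merged 3 biological replicates of each genotype into a single column of FPKM, a count of fragments scaled to transcript length and library size. No difference below therefore has a replicate check, an SD or a p-value. What the mutation does to BBX4 is not stated in the labels, and whether the replicates came from separate plantings is not stated either. Seedlings hold many cell types, so a change in the share of a cell type and a change in RNA per cell cannot be told apart.

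The gene that names the line was not low in the column labelled bbx4-1. BBX4 was at 1095.7 FPKM in the column labelled bbx4-1, against 88.97 FPKM in the wild-type column, which is 12.3-fold higher. Every direction below therefore refers to the column labelled bbx4-1 and not to a loss of BBX4 transcript. The lowest values of short transfer RNA genes, each taken as a single fragment, put the combined depth at about 49800000 fragments for the column labelled bbx4-1 and 48100000 for wild-type. These depths and annotated exon lengths gave each gene an approximate 95% counting interval. These intervals cover counting error only, since PCR copies of a molecule could not be recognised, and they assume that the authors' gene lengths were close to the annotated ones. Log2 ratios are the log2(FPKM + 1) of the column labelled bbx4-1 less that of the wild-type column, a scale that understates differences of genes with low FPKM. The 1.2-fold and 2-fold thresholds below are applied on this scale and not to plain FPKM.

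As deposited, most of the 45 glucosinolate genes were slightly higher in the column labelled bbx4-1. The 45 were chosen with earlier results of these data known. A mean of at least 1 FPKM over both columns was reached by 43 of the 45 genes, all except the regulator genes MYB76 (AT5G07700) and MYB122 (AT1G74080). Of these 43, 37 had a log2 ratio above 0, against 59.1% of the 18931 loci that reached the same mean, and 6 had one below 0, against 40.4% of the loci. Their median log2 ratio was 0.17, against 0.028 for all these loci. At least 1.2-fold higher were 14 of the 43 genes, against 5.15% of the loci, and at least 1.2-fold lower were 2 of them, against 4.11%. Only IGMT2 (AT1G21120) was at least 2-fold higher, a size reached by 0.106% of the loci, and none of the 43 was at least 2-fold lower, against 0.0423% of the loci. By more than the counting interval, 33 of the 43 were above 0, against 24.1% of 18741 loci for which an interval could be computed. By the same measure 4 were below 0, against 12.8% of those loci. Abundant genes have narrower intervals, and these 43 genes were more abundant than most loci. Their median in the wild-type column was 25.8 FPKM, against 9.87 FPKM for the 18931 loci. The shares of loci past the interval are therefore not a like background. Among 9470 loci with a mean of at least 10 FPKM, the log2 ratio had an SD of 0.16 across loci, whereas counting alone gave a root mean square SE of 0.047. A counting interval that excludes 0 is therefore common in these columns.

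**Figure D1:**
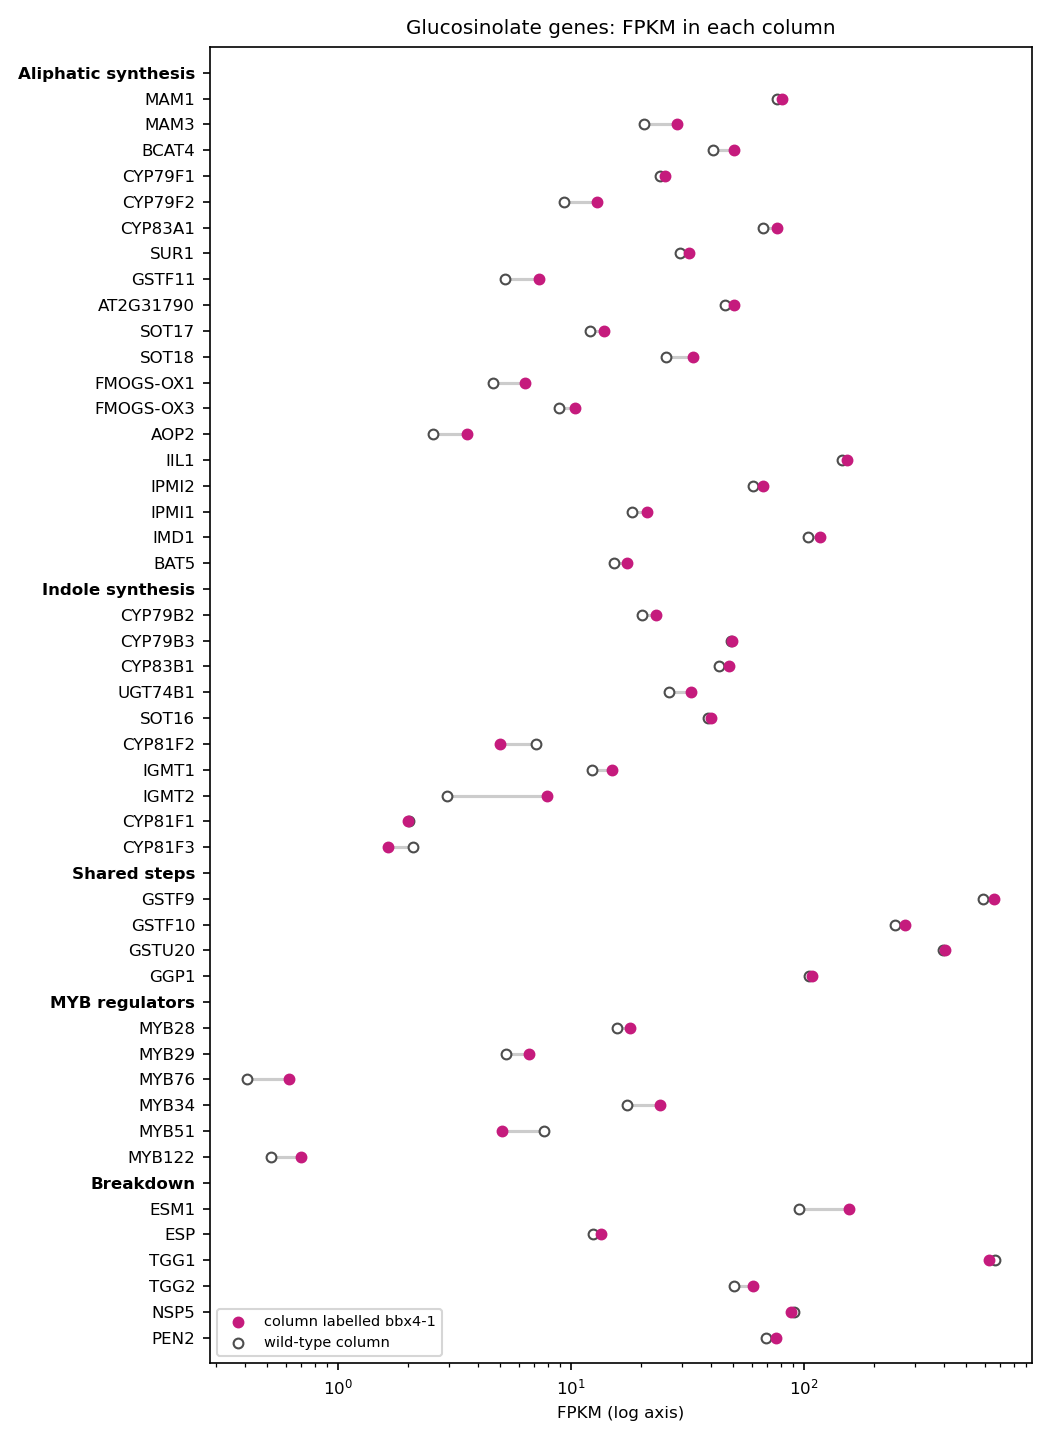
FPKM of the 45 glucosinolate genes on a log axis, with a filled point for the column labelled bbx4-1 and an open point for the wild-type column, grouped by role. Levels in the wild-type column run from 0.41 FPKM for MYB76 to 661 FPKM for TGG1, and in most rows the filled point lies slightly to the right.

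**Figure D2:**
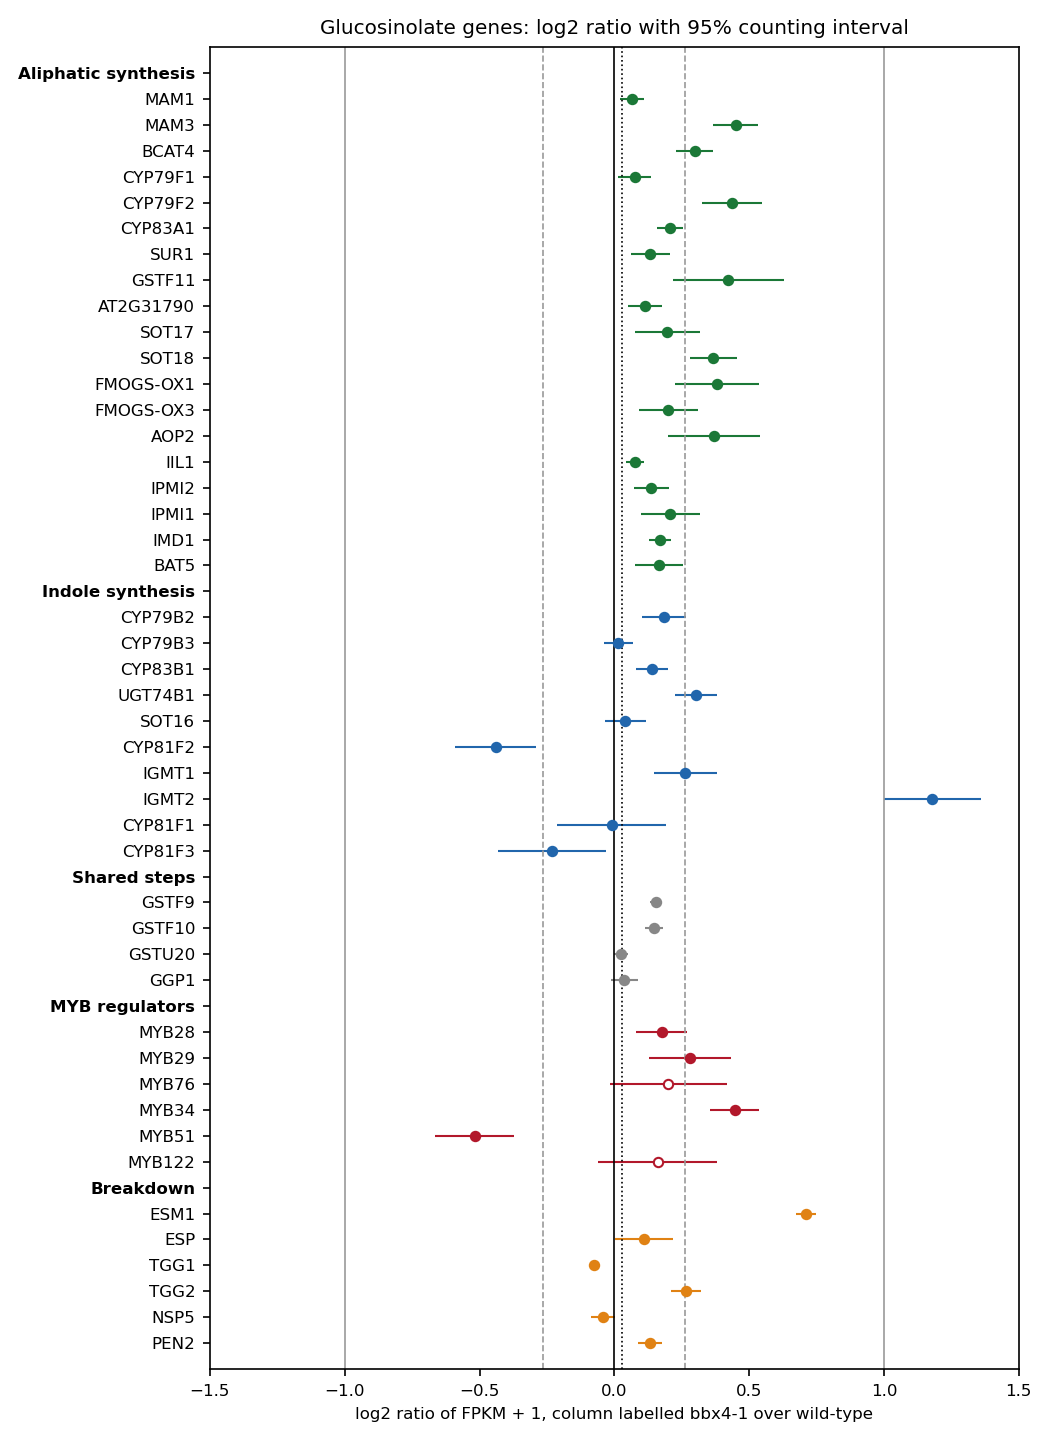
Log2 ratio of each glucosinolate gene, column labelled bbx4-1 over wild-type, with its approximate 95% counting interval as a bar. The dotted line is the median of all loci (0.028), dashed lines mark 1.2-fold and outer solid lines 2-fold, and open points are the 2 genes under a mean of 1 FPKM. All 19 aliphatic genes lie right of 0, whereas indole, regulator and breakdown genes lie on both sides.

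The aliphatic genes were all higher in the column labelled bbx4-1, by small amounts. All 19 had a log2 ratio above 0 and above the median of all loci. Their median was 0.20 and their range 0.065 to 0.45. At least 1.2-fold higher were 7 of the 19, against 5.15% of loci with a mean of at least 1 FPKM. None was at least 1.2-fold lower, against 4.11% of these loci. On the deposited scale, all 19 lay above 0 by more than the counting interval, against 24.1% of loci for which an interval could be computed. That interval covers counting error only and is narrower for abundant genes. The aliphatic genes had a median of 24.1 FPKM in the wild-type column, against 9.87 FPKM for loci with a mean of at least 1 FPKM. Their FPKM summed to 811 in the column labelled bbx4-1 and 719 in the wild-type column, a ratio of 1.13.

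Chain elongation starts with BCAT4 (AT3G19710), which removes the amino group of methionine. BCAT4 was at 50.6 FPKM in the column labelled bbx4-1 and 40.9 FPKM in wild-type, a log2 ratio of 0.30 (counting interval 0.23 to 0.37). BAT5 (AT4G12030), a carrier that brings the resulting 2-oxo acids into the plastid, was at 17.4 FPKM in the column labelled bbx4-1 and 15.4 FPKM in wild-type (0.17). MAM1 (AT5G23010) and MAM3 (AT5G23020) encode the condensing enzymes that set side-chain length, and lie near each other on chromosome 5 (7703041 to 7706973 and 7718118 to 7721866, TAIR10.1). MAM3 was at 28.7 FPKM in the column labelled bbx4-1 and 20.7 FPKM in wild-type, a log2 ratio of 0.45 (counting interval 0.37 to 0.53). MAM1 was at 80.8 FPKM in the column labelled bbx4-1 and 77.2 FPKM in wild-type, a log2 ratio of 0.065 (0.021 to 0.11). The less abundant MAM3 thus had the larger ratio of the pair, and the counting intervals did not overlap.

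The isomerase and dehydrogenase genes had log2 ratios between 0.076 and 0.21. IIL1 (AT4G13430), the large isomerase subunit that leucine synthesis also uses, was at 154 FPKM in the column labelled bbx4-1 and 146 FPKM in wild-type (0.076). It had the highest FPKM of the aliphatic genes in both columns. The small isomerase subunit genes IPMI2 (AT2G43100) and IPMI1 (AT3G58990) had log2 ratios of 0.14 and 0.21. IMD1 (AT5G14200), an isopropylmalate dehydrogenase, was at 118 FPKM in the column labelled bbx4-1 and 105 FPKM in wild-type (0.17). For comparison, 3 listed genes that serve leucine synthesis, IPMS1, IPMS2 and the isomerase small subunit gene IPMI SSU1, had log2 ratios of 0.042, −0.072 and 0.016. Each of their counting intervals included 0. The dehydrogenase genes IPMDH2 and IPMDH3 were also listed but were dropped because their listed names did not match the annotation.

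Core structure formation begins with the cytochromes P450 CYP79F1 (AT1G16410) and CYP79F2 (AT1G16400), which convert the elongated amino acids to aldoximes. CYP79F2 was at 13.0 FPKM in the column labelled bbx4-1 and 9.33 FPKM in wild-type, a log2 ratio of 0.44 (0.33 to 0.55). CYP79F1 was at 25.5 FPKM in the column labelled bbx4-1 and 24.1 FPKM in wild-type, a log2 ratio of 0.076 (0.015 to 0.14). Here too the less abundant neighbour had the larger ratio. The genes adjoin on chromosome 1 (CYP79F2 at 5605044 to 5607498, CYP79F1 at 5608682 to 5612064) and their coding sequences are 90.7% identical. Only 37 of the 1425 exact 64-base coding windows of CYP79F2 also occur in CYP79F1, so most stretches of that length tell the copies apart.

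Later core steps were higher to differing degrees. CYP83A1 (AT4G13770), which oxidises the aldoximes, was at 77.3 FPKM in the column labelled bbx4-1 and 66.8 FPKM in wild-type (0.21). GSTF11 (AT3G03190), a glutathione transferase of the aliphatic branch, was at 7.34 FPKM in the column labelled bbx4-1 and 5.22 FPKM in wild-type, a log2 ratio of 0.42 (0.22 to 0.63). SUR1 (AT2G20610), the C-S lyase, which also serves the indole branch, had a log2 ratio of 0.13. AT2G31790, annotated as a UDP-glycosyltransferase, had 0.12. The sulphotransferase genes SOT18 (AT1G74090) and SOT17 (AT1G18590), which complete the core, had 0.37 and 0.20, and SOT18 was at 33.5 FPKM in the column labelled bbx4-1 and 25.8 FPKM in wild-type.

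The 3 side-chain genes had log2 ratios between 0.20 and 0.38. FMOGS-OX1 (AT1G65860), an S-oxygenase of the methylthioalkyl side chain, was at 6.37 FPKM in the column labelled bbx4-1 and 4.66 FPKM in wild-type, a log2 ratio of 0.38 (0.22 to 0.54). Its relative FMOGS-OX3 (AT1G62560) was at 10.4 FPKM in the column labelled bbx4-1 and 8.93 FPKM in wild-type (0.20). AOP2 (AT4G03060), named for alkenyl glucosinolate formation, is annotated in the Columbia reference as a transcribed pseudogene. It was at 3.61 FPKM in the column labelled bbx4-1 and 2.57 FPKM in wild-type (0.37). Other S-oxygenase genes of the family went differently, with FMOGS-OX2 at 7.46 FPKM in the column labelled bbx4-1 and 8.97 FPKM in wild-type (−0.24), and log2 ratios of 0.065 for FMOGS-OX4 and 0.007 for FMOGS-OX5. After the median log2 ratio of all loci was set to 0, all 19 aliphatic genes kept a log2 ratio above 0.

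The windows of 250 bases before the annotated gene starts were read from RefSeq's TAIR10.1 genome, because the aliphatic genes differed in the same direction. AC elements, motifs recognised by many plant MYB proteins, were searched on both strands as AC-I (ACCTACC), AC-II (written ACCAACC) and AC-III (written ACCTAAC), and the G-box, recognised by bHLH and bZIP proteins, as CACGTG. An AC element occurred in 9 of the 19 aliphatic windows and 2 of the 10 indole windows, against 6.16% of 18316 windows of protein-coding nuclear genes with a mean of at least 1 FPKM. The 2 indole windows were those of UGT74B1 (AT1G24100) and SOT16 (AT1G74100). None was found in the windows of the shared, regulator or breakdown genes. A G-box occurred in 3 of the 45 windows, those of CYP83A1, SUR1 and IIL1, against 7.41% of the same 18316 windows. Matches to these AC spellings can overlap one another, and a match is a description of letters and not of binding. As examples, 4 aliphatic windows that hold an AC element are printed 5′ to 3′ towards the gene, with AC elements and G-boxes in capitals on whichever strand they match. They come from CYP79F2 (chr1:5604794-5605043, forward strand), CYP83A1 (chr4:7992430-7992679, reverse strand), IIL1 (chr4:7807985-7808234, reverse strand) and BAT5 (chr4:7210557-7210806, forward strand).
CYP79F2: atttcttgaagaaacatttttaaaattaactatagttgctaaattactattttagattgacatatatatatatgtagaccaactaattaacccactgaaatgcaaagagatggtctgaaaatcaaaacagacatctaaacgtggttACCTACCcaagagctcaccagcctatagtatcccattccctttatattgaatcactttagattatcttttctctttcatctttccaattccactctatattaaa
CYP83A1: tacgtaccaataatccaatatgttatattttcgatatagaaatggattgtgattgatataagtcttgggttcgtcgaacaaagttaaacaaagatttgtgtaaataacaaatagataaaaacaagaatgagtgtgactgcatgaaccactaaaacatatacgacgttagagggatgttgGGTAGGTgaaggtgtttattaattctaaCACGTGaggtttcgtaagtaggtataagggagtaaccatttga
IIL1: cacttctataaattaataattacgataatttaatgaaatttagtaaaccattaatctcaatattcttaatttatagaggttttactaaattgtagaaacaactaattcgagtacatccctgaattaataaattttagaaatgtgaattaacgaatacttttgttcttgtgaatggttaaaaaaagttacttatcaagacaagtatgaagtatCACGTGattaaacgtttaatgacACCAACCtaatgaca
BAT5: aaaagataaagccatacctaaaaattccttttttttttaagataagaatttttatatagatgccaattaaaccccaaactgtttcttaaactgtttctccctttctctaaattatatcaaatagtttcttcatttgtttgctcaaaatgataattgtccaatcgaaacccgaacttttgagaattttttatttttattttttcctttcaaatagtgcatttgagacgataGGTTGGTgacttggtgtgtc
The log2 ratios of these 4 genes spanned 0.076 for IIL1 to 0.44 for CYP79F2. The other aliphatic windows with an AC element were those of SUR1 (0.13), SOT17 (0.20), FMOGS-OX1 (0.38), IPMI2 (0.14) and IPMI1 (0.21). MAM3, which had the highest log2 ratio of the branch on the FPKM + 1 scale, had no match in its window. In plain FPKM, MAM3 (1.384-fold) ranked below GSTF11 (1.406-fold), AOP2 (1.405-fold) and CYP79F2 (1.392-fold). The other aliphatic genes without a match ran from 0.42 for GSTF11 to 0.065 for MAM1.

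In the indole branch, the ring-modifying genes spread more widely than the core genes. All 5 core genes lay above 0 on the deposited scale, between 0.015 and 0.30, although CYP79B3 (AT2G22330) did not when the median of all loci was set to 0. The 5 genes that modify the indole ring ran from −0.44 to 1.18, with 2 above 0 and 3 below. Over all 10, the median was 0.090, against 0.028 for all loci with a mean of at least 1 FPKM. Without genes that have a paralogue of at least 85% protein identity, the indole median was also 0.028. It was 0.041 with SUR1 and UGT74B1 counted as shared. At least 1.2-fold higher were 3 of the 10, against 5.15% of these loci, and 1 was at least 1.2-fold lower, against 4.11%.

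CYP79B2 (AT4G39950) and CYP79B3 convert tryptophan to indole-3-acetaldoxime, which is also a precursor of camalexin and of auxin. CYP79B2 was at 23.3 FPKM in the column labelled bbx4-1 and 20.3 FPKM in wild-type (0.18). CYP79B3 was at 49.3 FPKM in the column labelled bbx4-1 and 48.8 FPKM in wild-type, a log2 ratio of 0.015 that turned to −0.016 when the median of all loci was set to 0. CYP83B1 (AT4G31500), which oxidises the indole aldoxime, had 0.14. UGT74B1, a glucosyltransferase that also acts in the aliphatic branch, was at 32.9 FPKM in the column labelled bbx4-1 and 26.5 FPKM in wild-type (0.30). The sulphotransferase gene SOT16 was at 40.2 FPKM in the column labelled bbx4-1 and 39.1 FPKM in wild-type (0.041), and its counting interval included 0.

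The ring-modifying genes held both extremes of the indole branch. CYP81F2 (AT5G57220), a P450 that hydroxylates the indole ring and is known for its part in pathogen defence, was at 4.99 FPKM in the column labelled bbx4-1 and 7.13 FPKM in wild-type, a log2 ratio of −0.44 (−0.59 to −0.29). Of all loci, 1.28% had a lower ratio. Its relatives CYP81F3 (AT4G37400) and CYP81F1 (AT4G37430) had log2 ratios of −0.23 and −0.010, with CYP81F3 at 1.65 FPKM in the column labelled bbx4-1 and 2.11 FPKM in wild-type. CYP81F4, a further relative that hydroxylates the ring nitrogen, was at 23.0 FPKM in the column labelled bbx4-1 and 27.3 FPKM in wild-type (−0.24). The 4 CYP81F genes listed thus had ratios below 0, though the counting interval of CYP81F1 included 0.

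The methyltransferases that act after these P450 enzymes went the other way or differed little. IGMT2 was at 7.95 FPKM in the column labelled bbx4-1 and 2.95 FPKM in wild-type, which is 2.69-fold in FPKM and 1.18 on the log2 scale (1.00 to 1.36), and 0.0687% of loci had a higher ratio. IGMT1 (AT1G21100) was at 15.1 FPKM in the column labelled bbx4-1 and 12.4 FPKM in wild-type, exactly 1.2-fold on the scale used (0.26). IGMT3, which lies between them and is not among the 45 genes, was at 19.7 FPKM in the column labelled bbx4-1 and 12.9 FPKM in wild-type (0.57). IGMT4, the most abundant of the cluster, was at 172 FPKM in the column labelled bbx4-1 and 183 FPKM in wild-type (−0.089), and IGMT5, on the same chromosome outside the cluster, had 0.037.

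**Figure D3:**
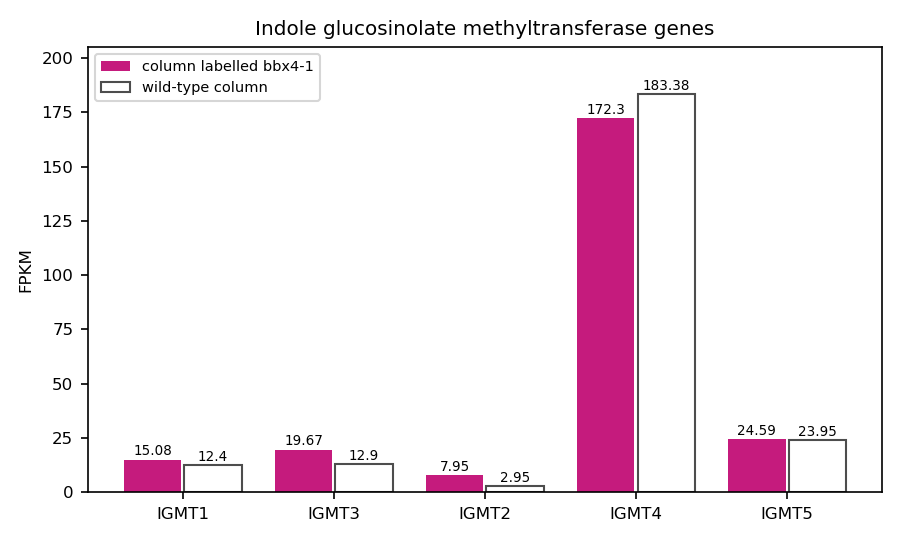
FPKM of the indole glucosinolate methyltransferase genes, with filled bars for the column labelled bbx4-1 and open bars for the wild-type column. IGMT2 (7.95 against 2.95 FPKM) and IGMT3 (19.67 against 12.9 FPKM) are higher in the column labelled bbx4-1, whereas IGMT4 is slightly lower there.

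Values of single IGMT genes are uncertain because the copies are alike. Of the 1077 exact 64-base coding windows of IGMT2, 371 also occur in IGMT3, 8 in IGMT1 and none in IGMT4. Reads that lie within such stretches cannot be assigned to IGMT2 or IGMT3, and the sources used here do not say how the authors counted them or how long the reads were. IGMT1 shared 77 of its 933 windows with any other place in the nuclear genome. The upstream windows follow the same pattern of likeness, with 84.2% identity between IGMT2 and IGMT3 and 47.1% between IGMT2 and IGMT1. The 3 windows are printed for comparison, for IGMT2 (chr1:7396824-7397073, reverse strand), IGMT3 (chr1:7391604-7391853, reverse strand) and IGMT1 (chr1:7388513-7388762, reverse strand), and none of them holds an AC element or a G-box, so no letters are in capitals.
IGMT2: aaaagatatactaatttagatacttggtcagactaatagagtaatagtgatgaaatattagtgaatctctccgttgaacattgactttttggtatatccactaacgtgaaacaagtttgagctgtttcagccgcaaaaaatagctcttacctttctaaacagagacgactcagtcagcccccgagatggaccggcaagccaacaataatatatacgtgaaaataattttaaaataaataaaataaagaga
IGMT3: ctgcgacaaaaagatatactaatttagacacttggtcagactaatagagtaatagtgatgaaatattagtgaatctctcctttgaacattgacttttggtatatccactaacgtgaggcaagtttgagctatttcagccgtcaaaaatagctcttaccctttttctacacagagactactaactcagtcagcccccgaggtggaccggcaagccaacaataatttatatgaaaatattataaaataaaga
IGMT1: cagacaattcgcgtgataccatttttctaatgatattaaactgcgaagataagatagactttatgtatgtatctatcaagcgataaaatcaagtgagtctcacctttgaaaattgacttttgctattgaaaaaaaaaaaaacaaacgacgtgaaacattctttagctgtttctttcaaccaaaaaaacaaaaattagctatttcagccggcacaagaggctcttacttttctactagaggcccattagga
The IGMT2 and IGMT3 windows belong to the cluster members with the highest ratios, and the IGMT1 window to a gene with a smaller one. What part the windows or the shared reads have in these ratios was not tested.

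The 4 genes shared between the branches were abundant and differed little. GSTF9 (AT2G30860), a glutathione transferase, was at 657 FPKM in the column labelled bbx4-1 and 591 FPKM in wild-type (0.15). Its tandem neighbour GSTF10 (AT2G30870) was at 273 FPKM in the column labelled bbx4-1 and 246 FPKM in wild-type (0.15). GSTU20 (AT1G78370), a transferase of another class, was at 406 FPKM in the column labelled bbx4-1 and 398 FPKM in wild-type, a log2 ratio of 0.026 that turned to −0.005 when the median of all loci was set to 0. GGP1 (AT4G30530), the peptidase that trims the glutathione conjugate, was at 109 FPKM in the column labelled bbx4-1 and 106 FPKM in wild-type (0.038). The median of the 4 was 0.092, and none passed 1.2-fold.

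The MYB regulator genes went in both directions, and the division ran within the indole group. MYB34 (AT5G60890), a regulator of indole synthesis, was at 24.1 FPKM in the column labelled bbx4-1 and 17.4 FPKM in wild-type, a log2 ratio of 0.45 (0.36 to 0.54). MYB51 (AT1G18570), another regulator of indole synthesis, was at 5.06 FPKM in the column labelled bbx4-1 and 7.68 FPKM in wild-type, a log2 ratio of −0.52 (−0.67 to −0.37). It had the lowest ratio of the 43 genes, and 0.813% of all loci had a lower one. MYB122, the remaining indole regulator, was at 0.70 FPKM in the column labelled bbx4-1 and 0.52 FPKM in wild-type, under the mean of 1 FPKM.

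The regulators of aliphatic synthesis were higher as deposited. MYB28 (AT5G61420) was at 17.95 FPKM in the column labelled bbx4-1 and 15.8 FPKM in wild-type (0.18). MYB29 (AT5G07690) was at 6.64 FPKM in the column labelled bbx4-1 and 5.29 FPKM in wild-type (0.28). MYB76 was at 0.62 FPKM in the column labelled bbx4-1 and 0.41 FPKM in wild-type, and its counting interval included 0. MYC2, MYC3 and MYC4, bHLH partners of these MYB proteins, had log2 ratios of 0.076, −0.024 and 0.27.

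Among the breakdown genes, ESM1 (AT3G14210) had the highest ratio. This gene, whose product in Arabidopsis favours isothiocyanates over nitriles, was at 158 FPKM in the column labelled bbx4-1 and 95.9 FPKM in wild-type, a log2 ratio of 0.71 (0.67 to 0.75), and 0.317% of loci had a higher ratio. ESP (AT1G54040), which promotes nitriles and epithionitriles, was at 13.6 FPKM in the column labelled bbx4-1 and 12.5 FPKM in wild-type (0.11). NSP5 (AT5G48180), a nitrile-specifier protein gene, was at 88.7 FPKM in the column labelled bbx4-1 and 91.3 FPKM in wild-type (−0.042). Outside the 45 genes, the relative NSP1 was at 246 FPKM in the column labelled bbx4-1 and 214 FPKM in wild-type (0.20), though 464 of its 1224 coding windows also occur elsewhere.

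The myrosinase genes did not share a direction. TGG1 (AT5G26000), the most abundant of the 45 genes in the wild-type column, was at 627 FPKM in the column labelled bbx4-1 and 661 FPKM in wild-type (−0.075). TGG2 (AT5G25980), which lies near it on chromosome 5, was at 60.8 FPKM in the column labelled bbx4-1 and 50.4 FPKM in wild-type (0.27). PEN2 (AT2G44490), an atypical myrosinase of pathogen defence, was at 75.9 FPKM in the column labelled bbx4-1 and 69.0 FPKM in wild-type (0.13). PEN3, the transporter that acts with PEN2, had 0.096. PYK10, an abundant beta-glucosidase of endoplasmic reticulum bodies, was at 1972 FPKM in the column labelled bbx4-1 and 1753 FPKM in wild-type (0.17).

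**Figure D4:**
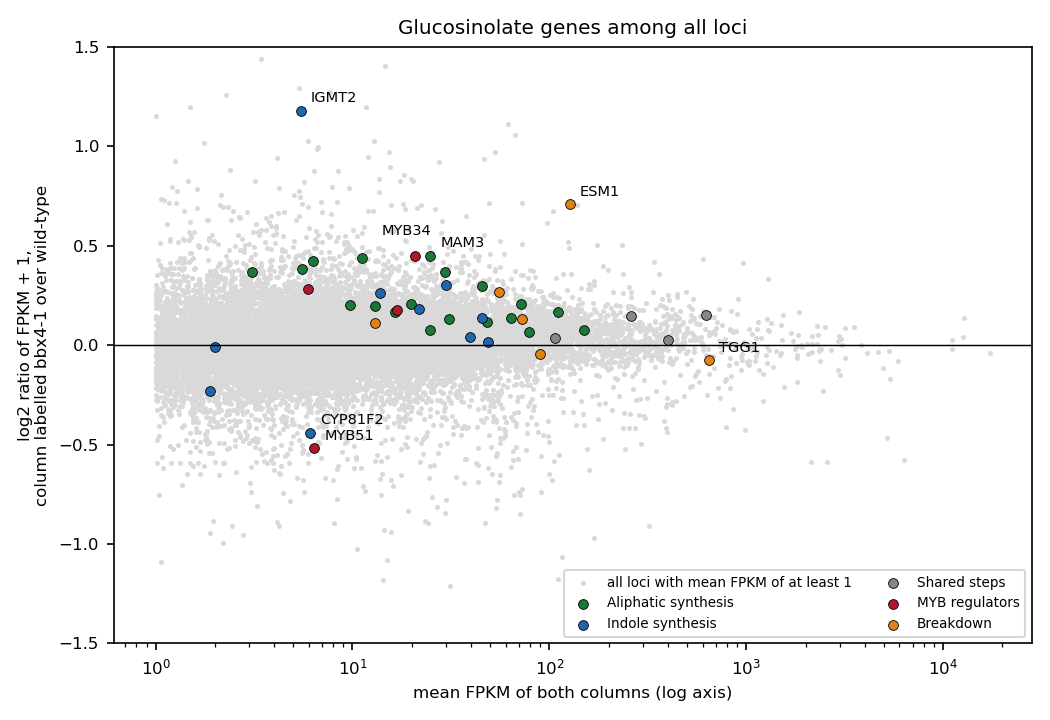
Log2 ratio, column labelled bbx4-1 over wild-type, against mean FPKM (log axis) for the 18931 loci with a mean of at least 1 FPKM (grey) and the 43 glucosinolate genes among them (coloured by role). IGMT2 and ESM1 lie near the upper edge of the grey cloud, MYB51 and CYP81F2 near its lower edge, and most others within it; 7 loci lie beyond the plotted range of 1.5 either way.

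The other listed genes of synthesis, transport and breakdown had medians near that of all loci. Of 16 other genes of synthesis and modification, 11 reached a mean of 1 FPKM, 8 above 0 and 3 below, with a median log2 ratio of 0.020, and IGMT3 alone was past 1.2-fold. Of 9 transporters and regulators, 5 were above 0 and 4 below, with a median of 0.030. The lowest was SDI1, which represses glucosinolate synthesis under sulphur limitation, at 3.05 FPKM in the column labelled bbx4-1 and 4.82 FPKM in wild-type (−0.52). MYC4 was the only gene of that list at least 1.2-fold higher. GTR1, a glucosinolate importer, was at 32.5 FPKM in the column labelled bbx4-1 and 37.8 FPKM in wild-type (−0.21), and its relative GTR2 had 0.030. The 9 measured other breakdown genes had a median of 0.064 and none past 1.2-fold on the FPKM + 1 scale, from BGLU28 at −0.24 to NSP1.

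Genes of sulphur supply lay on both sides of 0. Sulphotransferases use activated sulphate (PAPS), which ATP sulphurylases (APS genes) and the kinases after them (APK genes) make, while APR reductases direct the shared intermediate to cysteine. Among 11 genes of sulphate activation and reduction, the median log2 ratio was −0.003. At least 1.2-fold higher was 1 of them and at least 1.2-fold lower were 2, against 5.15% and 4.11% of loci with a mean of at least 1 FPKM. APS4 was at 36.1 FPKM in the column labelled bbx4-1 and 25.4 FPKM in wild-type (0.49), and the kinase genes APK1 and APK2 had 0.14 and 0.16. The reductase genes APR1, APR2 and APR3 had −0.29, −0.25 and −0.38, and APR3 was at 86.0 FPKM in the column labelled bbx4-1 and 112 FPKM in wild-type. Of 6 measured genes known to be induced by sulphur deficiency, 5 had ratios below 0, against 40.4% of loci with that mean. The median of the 6 was −0.23. LSU1 was among the 5 (−0.20), with a counting interval that included 0. LSU2 was at 6.45 FPKM in the column labelled bbx4-1 and 10.4 FPKM in wild-type (−0.61). SHM7 was at 35.5 FPKM in the column labelled bbx4-1 and 51.2 FPKM in wild-type (−0.52), while LSU3 had the highest ratio of these 6 (0.14), with a counting interval that included 0. What part sulphur supply has in the glucosinolate values was not tested.

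Genes of tryptophan synthesis, which feeds the indole branch, had a median of 0.16 over 8 genes. Of the 8, 7 were above 0, against 59.1% of loci with a mean of at least 1 FPKM. ASB1, an anthranilate synthase subunit, was at 20.9 FPKM in the column labelled bbx4-1 and 17.1 FPKM in wild-type (0.27), the only one past 1.2-fold. The lowest was PAI1 at −0.089, a gene with close copies whose value is uncertain for that reason.

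**Figure D5:**
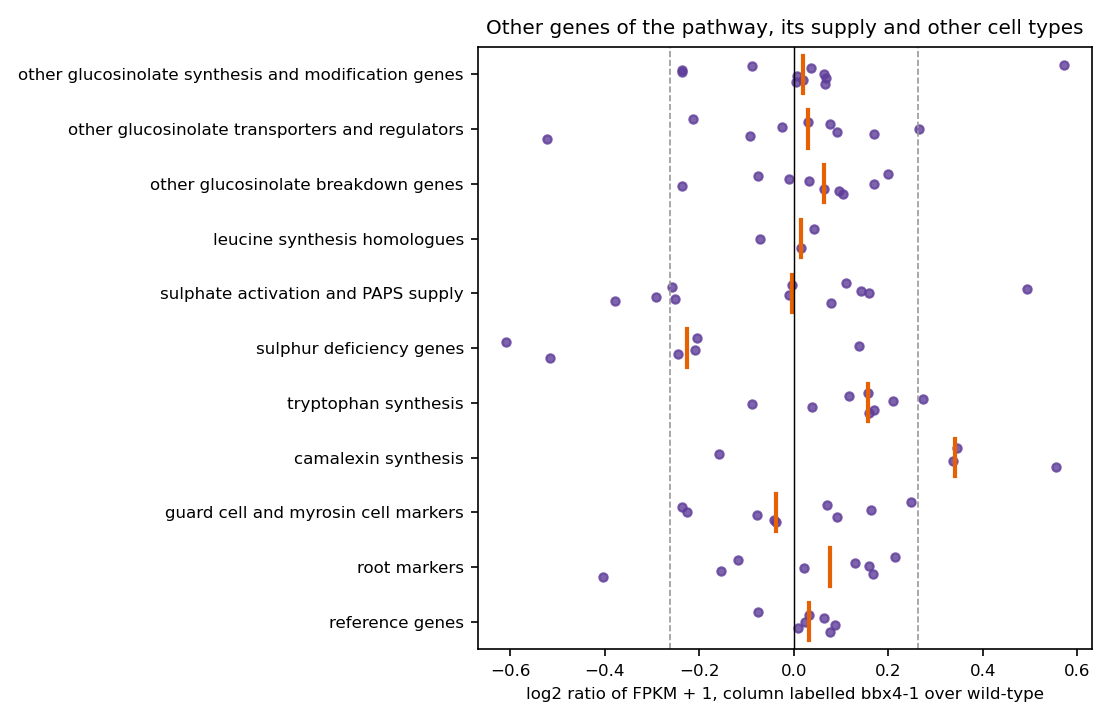
Log2 ratios, column labelled bbx4-1 over wild-type, of single genes (points) in 11 comparison lists, restricted to genes with a mean of at least 1 FPKM; orange bars are list medians and dashed lines mark 1.2-fold. The sulphur deficiency list has a median of −0.23 and the tryptophan list 0.16, while the reference genes lie between −0.076 and 0.087.

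Markers of cell types that hold glucosinolate enzymes were present in both columns. All 9 markers of guard cells and myrosin cells reached a mean of 1 FPKM, 4 above 0 and 5 below. On the FPKM + 1 scale, none of the 9 was past 1.2-fold. Their FPKM summed to 79.2 in the column labelled bbx4-1 and 80.1 in wild-type. FAMA, which specifies both cell types, was at 9.98 FPKM in the column labelled bbx4-1 and 8.25 FPKM in wild-type (0.25), the highest ratio of the list. SCRM2, which acts with FAMA in the stomatal lineage, was at 18.8 FPKM in the column labelled bbx4-1 and 22.4 FPKM in wild-type (−0.24), the lowest ratio of the list. Of 9 root markers, 8 reached a mean of 1 FPKM, with 5 above 0 and 3 below. The whole list summed to 72.8 FPKM in the column labelled bbx4-1 and 68.5 FPKM in wild-type. The root markers ran from WER at −0.40 to SCR at 0.21. No marker of either list was at 0, and their part in the glucosinolate values was not tested. The 7 reference genes kept had a median of 0.033 and ran from ACT2 to PEX4.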

How the data were processed

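Messenger RNA of seedlings was sequenced after poly(A) enrichment, per the labels' protocols. The authors deposited FPKM, 1 column per genotype, with the 3 replicates combined, per the series' design text. The submitters' processing notes name HISAT2 2.1.0, edgeR 3.0.8 and the build TAIR10, with roles, counting rule, annotation and use of strand not given in the sources used here. No test was run, because a single FPKM column per genotype carries no replicate error. Values were compared as log2(FPKM + 1), with a mean of at least 1 FPKM and thresholds of 2-fold and 1.2-fold. Approximate fragments were FPKM times the exon length in the TAIR10.1 RefSeq annotation (32835 of 33602 loci matched), divided by the median product of FPKM and length over transfer RNA genes of at most 75 bases with the lowest values above 0 (18 genes in the column labelled bbx4-1, 20 in the wild-type column). Coding windows of 64 bases were matched exactly to both strands of the nuclear genome. Tools were Python 3.11.15, pandas 2.3.3, numpy 2.4.6 and biopython 1.88.

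The glucosinolate genes and the 11 comparison lists (108 entries, 97 kept where the annotation gives the listed name) were chosen with earlier results of these data known. All 45 genes are named; values in each column are given for those past 1.2-fold and, in each role, the highest and lowest ratio and the highest mean, with others for context. Of each comparison list, the highest and lowest ratio are named.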

Additional observations from a re-analysis of the deposited data

How the results depend on the processing

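No paired analysis was possible because each genotype has a single combined column, and for the same reason no replicate could be left out. The count of genes at least 2-fold higher was 0 with a pseudocount of 5, where IGMT2 had a log2 ratio of 0.70, and the count at least 1.2-fold higher was then 9. The median of the shared genes was 0.061 with the median of all loci set to 0, and 0.14 with SUR1 and UGT74B1 counted as shared. All other counts and medians by role stayed within 1.5 times the reported count, or within the 95% counting interval of a typical gene of that role, under the pseudocounts, scalings, filters and member choices tried. Among these, the indole median ran from 0.028, without genes that have a paralogue of at least 85% protein identity (searched among the pathway genes listed here), to 0.16 with a minimum mean of 5 FPKM. The lower of these values is also the median of all loci (0.028). Only CYP79B3 and GSTU20 changed sign under a scaling or pseudocount. Depth limits the least abundant genes most: MYB76 and MYB122 rest on about 30 to 54 fragments a column.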

Other observations

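Camalexin is an indole phytoalexin made from the same aldoxime as the indole glucosinolates. Of 5 listed genes, 4 reached a mean of 1 FPKM, and 3 of these exceeded wild-type by 1.2-fold or more in the column labelled bbx4-1, against 5.15% of all loci with that mean. GSTF6, a glutathione transferase linked to camalexin synthesis, was at 55.5 FPKM in the column labelled bbx4-1 and 37.4 FPKM in wild-type (0.56). CYP71A12 was at 4.12 FPKM in the column labelled bbx4-1 and 3.03 FPKM in wild-type (0.35), and GSTF7 had 0.34. PAD3, which catalyses the last step, was at 3.41 FPKM in the column labelled bbx4-1 and 3.92 FPKM in wild-type (−0.16). CYP71A13 was at 0.51 FPKM in the column labelled bbx4-1 and 0.82 FPKM in wild-type. GSTF6 and GSTF7, and likewise CYP71A12 and CYP71A13, are close copies of each other, so how their reads were divided is uncertain.

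Within the aliphatic branch, the 6 genes with a mean under 15 FPKM had log2 ratios of 0.20 to 0.44 (median 0.37), and the 13 others 0.065 to 0.45 (median 0.17). Over the 43 measured glucosinolate genes, Spearman's rho between mean FPKM and log2 ratio was −0.24, against 0.082 over all 18931 loci. These are descriptions across genes of 2 columns, whose values share both libraries' depth. The split at 15 FPKM was chosen after the values were seen.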
